A study of Homo sapiens and Mus musculus with 22 samples.

Results

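The genes of matrix metalloproteases (MMPs), of the related ADAM and ADAMTS metalloproteases and of the tissue inhibitors of metalloproteases (TIMPs) were described in RNA-seq libraries of small cell lung cancer (SCLC) lines. Members were the genes named MMP, ADAM or ADAMTS with a number, or TIMP1 to TIMP4, with at least 10 counts in at least 2 libraries of their table. The rule kept 46 of 66 such symbols in the table of H69 and H69M, 47 of 63 in the table of H69EZ and 45 of 70 in the mouse table, out of 25435, 20113 and 24047 genes. MMP25, with 10 counts in its second-highest library, lay just inside the rule in the first table and MMP19, with 9, just outside. The 22 libraries fell into 8 groups. H69 is an established human SCLC line, and H69M was derived from it by a published procedure. MHC class I molecules present antigen at the cell surface, and HLA-ABC is their human name. H69M was sequenced as cells sorted high for PD-L1, as cells sorted low or negative for PD-L1 and unsorted, and H69 was sequenced unsorted, in 3 libraries each. H69EZ came from H69 cells exposed for 6 days to an inhibitor of EZH2, the methyltransferase that places H3K27me3, then grown without it and selected for adherence to plastic. Both of its fractions share that history, and the HLA-ABC high and the HLA-ABC low or negative cells gave 2 libraries each. RPP-A is a mouse line selected from the mouse SCLC line RPP for adherent growth, with 3 libraries of each. The labels call the PD-L1 high and HLA high fractions, unsorted H69M and RPP-A high for MHC class I, and the PD-L1 low and HLA low fractions, H69 and RPP low or negative. The labels give neither the alleles carried by RPP nor whether libraries of a group came from separate cultures, so the spread that p-values rest on may be technical.

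MMPs are zinc proteases that cut collagens, proteoglycans and other matrix proteins, and are secreted as inactive precursors or held at the membrane. ADAMs are membrane proteins, some of which release growth factors, cytokines and adhesion molecules from the cell surface, whereas several others lack the zinc-binding site and act as adhesion receptors, mainly in the nervous system. ADAMTS proteases are secreted and bind the matrix, where they trim procollagens, cut hyaluronan-binding proteoglycans or act on microfibrils. TIMPs block these enzymes with different preferences.

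Total counts ran from 10817795 to 52458228 per library. Levels are given as CPM, counts scaled to a common library total after TMM normalisation. They compare libraries for 1 gene and not genes with each other, since they are not divided by length. In the mouse table, 1 RPP library (column EHK_RPP4) and 1 RPP-A library (column RPPM3) stood apart from the others of their group, with chi-square values per degree of freedom of 29.7 and 33.4 for EHK_RPP4 and of 36.3 and 39.3 for RPPM3. The remaining pairs of these groups gave 3.55 for RPP and 1.35 for RPP-A, where a value of 1 stands for counting noise alone. The summed level of 9 fibroblast and stromal markers was 11210 to 11503 CPM in the PD-L1 high fraction and 269.9 to 367 CPM in the PD-L1 low fraction, and 2521 to 2811 CPM in unsorted H69M and 156 CPM in H69. It was 16384 to 17816 CPM in the HLA high fraction and 109 to 113 CPM in the HLA low fraction, and 23073 to 30852 CPM in RPP-A and 88.3 to 461 CPM in RPP. PDGFRB was at 0 in H69, COL3A1 in the HLA low fraction and Lum in RPP. The 7 neuroendocrine markers summed to 1091 to 1148 CPM in the PD-L1 high fraction and 3979 to 4206 CPM in the PD-L1 low fraction, to 2788 to 2865 CPM in unsorted H69M and 2813 to 2991 CPM in H69, to 558 to 580.0 CPM in the HLA high fraction and 1941 to 1958 CPM in the HLA low fraction, and to 151 to 191 CPM in RPP-A and 2344 to 2897 CPM in RPP. All 7 had counts in every group except NEUROD1, at 0 in the PD-L1 high fraction. Of the leukocyte markers, CD3E and MS4A1 were at 0 in all groups, and the 9 human markers summed to at most 11.5 CPM. In mouse, 8 of them were measured and summed to 35.0 to 38.8 CPM in RPP-A and 2.53 to 3.19 CPM in RPP. Of the endothelial markers, 4 of 5 were measured in H69EZ and summed to 228 to 238 CPM in the HLA high fraction and 0.139 to 0.257 CPM in the HLA low fraction, where KDR was at 0. All 5 summed to 9.64 to 10.4 CPM in the PD-L1 high fraction and 0.975 to 1.45 CPM in the PD-L1 low fraction, and to 3.69 to 5.39 CPM in RPP-A, where Cdh5 was at 0, and 40.1 to 48.8 CPM in RPP. The part of these marker differences in the results for the protease genes was not tested. In bulk RNA, fewer cells of a kind and less RNA per cell cannot be told apart.

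Member transcripts made up a larger share of all counts in each MHC class I high population. They took 0.317% to 0.327% of counts in the PD-L1 high fraction and 0.109% to 0.113% in the PD-L1 low fraction, and 0.136% to 0.139% in unsorted H69M and 0.0825% to 0.0839% in H69. They took 0.332% of counts in both HLA high libraries and 0.0947% to 0.0951% in the HLA low libraries, and 0.453% to 0.464% in RPP-A and 0.116% to 0.133% in RPP. The libraries of each pair of groups did not overlap. A gene is called higher or lower below when its adjusted p in edgeR's quasi-likelihood test was under 0.05 over all genes of its table.

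Most members were called in each main comparison, as were most genes. In H69M against H69, 28 of the 45 members that passed the filter on low counts rose and 11 fell (35.9% and 36.6% of all tested genes), and MMP25 was not tested. In the PD-L1 high against the PD-L1 low fraction, 31 of 45 rose and 11 fell (39% and 39.4% of all tested genes). In the HLA high against the HLA low fraction, 32 of 46 rose and 9 fell (41.1% and 40.2% of all tested genes), and ADAMTS20 was not tested. A rise or fall in the HLA sort given below without a p also passed the test, whose p-values are very small because the spread was pooled across genes. In RPP-A against RPP, 31 of 45 rose and 11 fell (37.6% and 40.6% of all tested genes). The median log2 fold change of the tested members was 1.29 in H69M, 1.64 for the PD-L1 high fraction, 1.99 for the HLA high fraction and 2.86 in RPP-A, against -0.00871, -0.00308, 7.55e-05 and -0.0391 over all tested genes. The medians were the same with genes at 0 counts in a group set at their lower bound of 3 counts over the group. Groups did not overlap for 39 tested members in H69M against H69 (72.9% of all tested genes) and for 42 in the PD-L1 sort (80.1%). They did not overlap for 42 in the HLA sort (90.2%) and for 42 in RPP-A (82.3%). With at least a 2-fold change also required, 5 members fell in the HLA sort (14.8% of all tested genes). These counts describe the members, since a gene read in 1 group only passes the filter through that group. The map of fold changes by role shows the direction of each gene side by side.

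**Figure D1:**
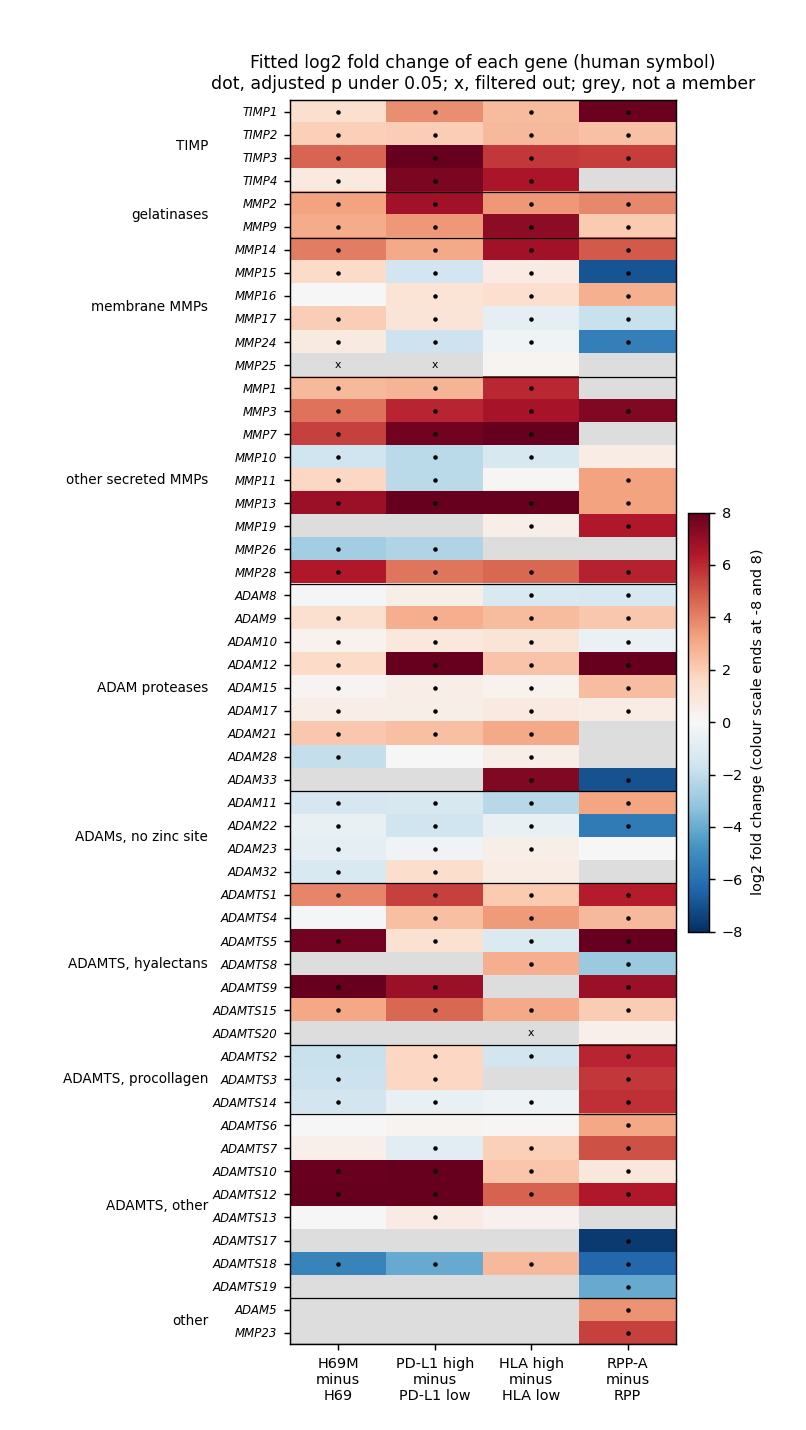
Fitted log2 fold change (colour) of each member in H69M minus H69, PD-L1 high minus PD-L1 low, HLA high minus HLA low and RPP-A minus RPP, grouped by role, with a dot for an adjusted p under 0.05, a cross for members that did not pass the filter and grey where the gene is not a member in that table. The TIMP and gelatinase rows are red in all columns where they were tested, and the ADAMs without a zinc site and the membrane MMPs hold both colours; fitted values of genes at 0 in a group depend on the prior count and are not bounds.

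All tested TIMP genes rose in all 4 comparisons, where 35.9% to 41.1% of all tested genes rose. TIMP1, a secreted inhibitor of most soluble MMPs, had 79.9, 86.1 and 79.7 CPM in the PD-L1 high fraction, against 6.56, 5.21 and 6.65 CPM in the PD-L1 low fraction (log2 fold change 3.75 ± 0.09 SE, adjusted p = 2.14e-18). It had 24.1, 27.3 and 26.6 CPM in unsorted H69M, against 9.70, 10.7 and 11.9 CPM in H69 (log2 fold change 1.29 ± 0.09 SE, adjusted p = 6.49e-11). The order of TIMP1 levels was thus PD-L1 high, unsorted H69M, H69 and PD-L1 low, with no overlap between neighbours. It had 43.9 and 40.0 CPM in the HLA high fraction, against 7.39 and 6.98 CPM in the HLA low fraction. Timp1 had 216, 220.2 and 207 CPM in RPP-A, against 1.71, 0.554 and 0.563 CPM in RPP (log2 fold change 7.87 ± 0.30 SE, adjusted p = 3.79e-07). The Timp1 fold was 1 of the 4 largest rises among mouse members with at least 1 CPM in the higher group. Without the RPP library EHK_RPP4, it was 8.61 on the log2 scale.

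TIMP2, which blocks MMPs and also binds MMP14 in the complex that activates MMP2, had the highest counts of the 4 TIMP genes in every group. It had 850.2, 847 and 847 CPM in the PD-L1 high fraction, against 217, 208 and 219 CPM in the PD-L1 low fraction (log2 fold change 1.98 ± 0.05 SE, adjusted p = 1.18e-18). It had 263, 272 and 277 CPM in unsorted H69M, against 71.0, 70.2 and 74.5 CPM in H69 (log2 fold change 1.92 ± 0.05 SE, adjusted p = 9.64e-18). Here the PD-L1 low fraction also lay above H69 in every library (log2 fold change 1.58 ± 0.05 SE, adjusted p = 2.67e-16). In H69EZ it had 882 and 844 CPM in the HLA high fraction, against 143 and 138 CPM in the HLA low fraction, and in mouse Timp2 had 1011, 1012 and 1171 CPM in RPP-A, against 235, 205 and 202 CPM in RPP (log2 fold change 2.31 ± 0.13 SE, adjusted p = 1.77e-06).

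TIMP3, which is held in the matrix and also inhibits ADAM17 and several ADAMTS proteases, was at 0 in 2 of the 3 PD-L1 low libraries. It had 87.3, 87.9 and 82.4 CPM in the PD-L1 high fraction, against 0, 0 and 1.08 CPM in the PD-L1 low fraction (log2 fold change 8.33 ± 0.27 SE, adjusted p = 2.39e-16). Without PD-L1 low replicate 3 no count was left in that fraction, and the PD-L1 high fraction was at least 1266-fold higher, against 3 counts. The fitted log2 fold change was 7.59 without PD-L1 low replicate 1 and 7.67 without replicate 2. TIMP3 had 11.9, 12.8 and 12.5 CPM in unsorted H69M, against 0.362, 0.453 and 0.807 CPM in H69 (log2 fold change 4.65 ± 0.31 SE, adjusted p = 4.52e-11). The gap was also wide in the other lines, with 317 and 312 CPM in the HLA high fraction, against 5.87 and 6.43 CPM in the HLA low fraction. Timp3 had 498, 485 and 541 CPM in RPP-A, against 20.9, 6.86 and 5.98 CPM in RPP (log2 fold change 5.51 ± 0.49 SE, adjusted p = 2.38e-05, and 6.35 without EHK_RPP4).

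TIMP4 had the lowest counts of the TIMP genes in all human groups except H69, where TIMP3 was lower. It had 7.88, 7.37 and 6.75 CPM in the PD-L1 high fraction, against 0.0443, 0 and 0.0723 CPM in the PD-L1 low fraction, a count ratio of 214 (95% exact interval 58.9 to 1775). It had 1.48, 1.54 and 1.38 CPM in unsorted H69M, against 0.966, 1.02 and 0.242 CPM in H69 (log2 fold change 0.79 ± 0.28 SE, adjusted p = 0.0143). It was at 0 in both HLA low libraries and had 0.240 and 0.261 CPM in the HLA high fraction, at least 7.78-fold higher against 3 counts over the group. Timp4 did not meet the count rule in the mouse table. The largest adjusted p among the 4 TIMP genes in the HLA sort was 3.44e-07 for TIMP4.

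TIMP1, TIMP3 and TIMP4 lie within introns of the synapsin genes SYN1, SYN3 and SYN2 on the opposite strand in the GENCODE v29 annotation, with 0 exon bases shared. The sources used here do not say whether counting used strand, and reads from a TIMP gene and its host cannot be told apart with certainty. SYN1, which encodes a synaptic vesicle protein, had a mean of 15.8 CPM in the PD-L1 high fraction, against 56.9 CPM in the PD-L1 low fraction (log2 fold change -1.85 ± 0.10 SE, adjusted p = 8.57e-13). SYN3 had a mean of 2.56 CPM in the PD-L1 high fraction, against 11.02 CPM in the PD-L1 low fraction (log2 fold change -2.10 ± 0.17 SE, adjusted p = 3.88e-10), and SYN2 had a mean of 4.05 CPM in the PD-L1 high fraction, against 13.5 CPM in the PD-L1 low fraction (log2 fold change -1.72 ± 0.11 SE, adjusted p = 6.41e-12). In the PD-L1 sort, the 3 host genes fell where these TIMP genes rose. Their levels in the HLA sort and in mouse are not given here, and the part of shared reads was not tested. Between unsorted H69M and H69, SYN3 rose (log2 fold change 2.497 ± 0.16 SE, adjusted p = 2.35e-11), in the same direction as TIMP3.

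**Figure D2:**
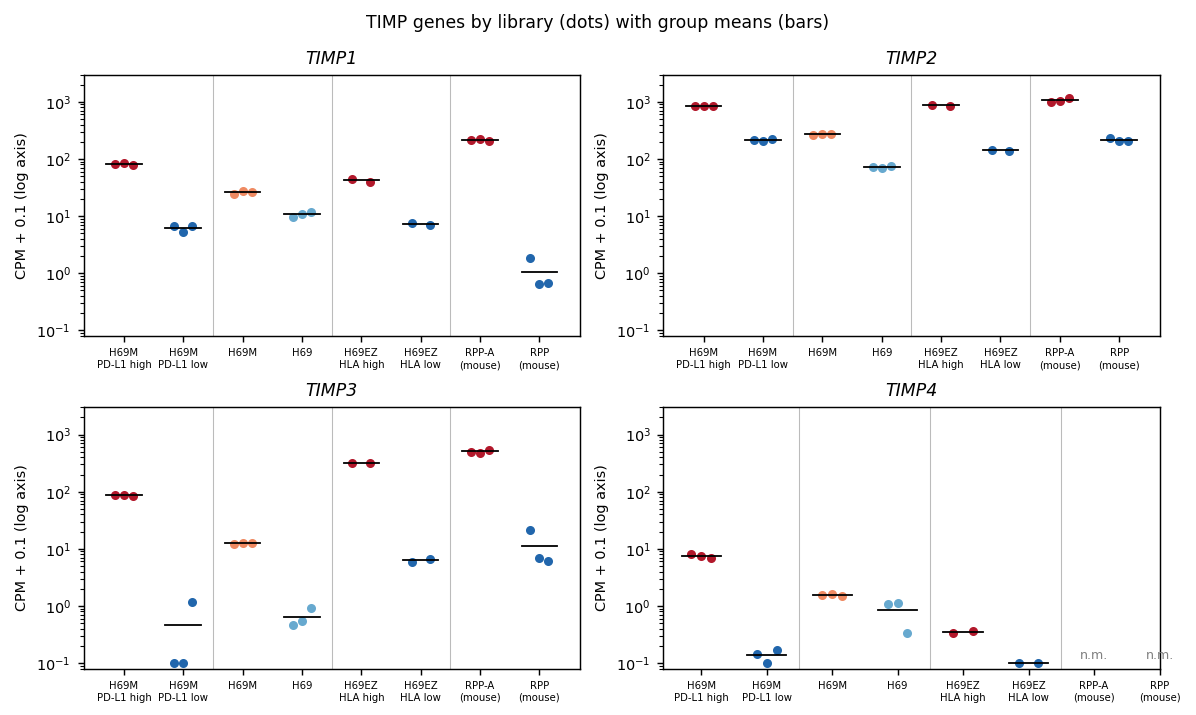
CPM plus 0.1 on a log axis of TIMP1 to TIMP4 in each library (dots) with group means (bars) over the 8 groups, with n.m. where the gene is not a member. In each panel the PD-L1 high, HLA high and RPP-A libraries lie above their PD-L1 low, HLA low and RPP libraries, and TIMP3 reads 0 in 2 of 3 PD-L1 low libraries.

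Both gelatinases rose in all 4 comparisons, where 35.9% to 41.1% of all tested genes rose. MMP2, the protease that cuts denatured collagen and basement membrane collagen, had 554, 571 and 564 CPM in the PD-L1 high fraction, against 3.59, 4.47 and 9.55 CPM in the PD-L1 low fraction (log2 fold change 6.69 ± 0.15 SE, adjusted p = 8.77e-19). It had 114, 118 and 113 CPM in unsorted H69M, against 12.4, 12.05 and 13.6 CPM in H69 (log2 fold change 3.19 ± 0.13 SE, adjusted p = 2.6e-14). The PD-L1 low fraction lay below H69 in every library (log2 fold change -1.21 ± 0.19 SE, adjusted p = 8.26e-06), so that H69 stood between both fractions of its derivative. MMP2 had 116 and 117 CPM in the HLA high fraction, against 10.5 and 10.8 CPM in the HLA low fraction (log2 fold change 3.45 ± 0.08 SE). Mmp2 had 354, 363 and 385 CPM in RPP-A, against 33.4, 21.5 and 21.7 CPM in RPP (log2 fold change 3.85 ± 0.20 SE, adjusted p = 1.17e-06).

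MMP9, the other gelatinase, was read at low levels in H69M and at higher levels in the other high populations. It had 12.7 and 12.1 CPM in the HLA high fraction, against 0.119 and 0.0464 CPM in the HLA low fraction, 1 of the 4 largest rises of the HLA sort among members with at least 1 CPM in the higher group, with a log2 fold change of 7.14 ± 0.23 SE. Leaving out HLA low replicate 1 left 2 counts in that fraction, a count ratio of 267.9 (95% exact interval 74.0 to 2215). It had 1.27, 1.01 and 1.34 CPM in the PD-L1 high fraction, against 0.133, 0.0465 and 0.145 CPM in the PD-L1 low fraction (log2 fold change 3.46 ± 0.41 SE, adjusted p = 2.01e-07). It had 0.674, 0.448 and 0.803 CPM in unsorted H69M, against 0.0805, 0.0755 and 0.0807 CPM in H69 (log2 fold change 2.97 ± 0.47 SE, adjusted p = 1.17e-05). Mmp9 had 38.5, 45.3 and 50.2 CPM in RPP-A, against 25.9, 2.70 and 3.73 CPM in RPP (log2 fold change 2.08 ± 0.73 SE, adjusted p = 0.0301). The RPP library EHK_RPP4 is the high one, and without it the Mmp9 log2 fold change was 3.84 with an adjusted p of 1.31e-06. With RPP1, RPP2, RPPM1, RPPM2 or RPPM3 left out in its place, the call was lost, at adjusted p-values of 0.0660, 0.0827, 0.0524, 0.0651 and 0.0819, as it was with library totals in place of TMM scaling, at 0.0589, and with RPPM1 and RPPM2 summed as 1 library, at 0.0552.

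MMP14, the membrane-type MMP that activates MMP2 at the cell surface, rose in all 4 comparisons, while its relatives MMP15 and MMP24 went both ways. MMP14 had 548 and 504 CPM in the HLA high fraction, against 4.57 and 5.48 CPM in the HLA low fraction (log2 fold change 6.72 ± 0.09 SE), and Mmp14 had 507, 524 and 441 CPM in RPP-A, against 35.97, 7.20 and 6.89 CPM in RPP (log2 fold change 4.89 ± 0.67 SE, adjusted p = 0.000258). Without EHK_RPP4, the mouse value was 6.16. In the PD-L1 sort MMP14 had 41.3, 39.4 and 37.4 CPM in the PD-L1 high fraction, against 5.01, 4.65 and 4.41 CPM in the PD-L1 low fraction (log2 fold change 3.06 ± 0.10 SE, adjusted p = 2.71e-16). Unsorted H69M had 4.18, 4.18 and 3.90 CPM, which overlaps none of the PD-L1 low libraries but was not called apart from them (PD-L1 low minus H69M: log2 fold change 0.21 ± 0.13 SE, adjusted p = 0.166). H69 lay lowest, at 0.402, 0.113 and 0.161 CPM (H69M minus H69: log2 fold change 4.08 ± 0.25 SE, adjusted p = 9.7e-12). Without H69 replicate 1, that fold was 4.92 on the log2 scale.

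MMP15, another membrane-type MMP, had 8.27, 8.71 and 9.64 CPM in the PD-L1 high fraction, against 27.9, 24.7 and 24.6 CPM in the PD-L1 low fraction (log2 fold change -1.55 ± 0.09 SE, adjusted p = 1.49e-12), the reverse of its difference between the lines. It had 12.4, 12.5 and 12.5 CPM in unsorted H69M, against 4.47, 4.12 and 4.76 CPM in H69 (log2 fold change 1.504 ± 0.10 SE, adjusted p = 5.21e-11). MMP24, a membrane-type MMP known from the nervous system, differed in the same directions, with 16.2, 15.7 and 16.3 CPM in the PD-L1 high fraction, against 53.8, 45.9 and 51.9 CPM in the PD-L1 low fraction (log2 fold change -1.65 ± 0.10 SE, adjusted p = 4.78e-12) and 31.6, 40.3 and 35.7 CPM in unsorted H69M, against 20.4, 21.1 and 26.3 CPM in H69 (log2 fold change 0.69 ± 0.10 SE, adjusted p = 2.16e-06). The fall in RPP-A was the widest for both genes. Mmp15 had 0.407, 0.459 and 0.312 CPM in RPP-A, against 53.9, 48.5 and 41.9 CPM in RPP (log2 fold change -6.90 ± 0.20 SE, adjusted p = 1.61e-07). Mmp24 had 0.949, 0.976 and 0.687 CPM in RPP-A, against 45.9, 36.6 and 35.2 CPM in RPP (log2 fold change -5.48 ± 0.20 SE, adjusted p = 3.11e-07). In H69EZ, MMP15 rose (log2 fold change 0.63 ± 0.11 SE, adjusted p = 2.49e-08) and MMP24 fell (log2 fold change -0.26 ± 0.07 SE, adjusted p = 0.000467). The MMP24 call was lost without HLA low replicate 1, at an adjusted p of 0.0636.

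MMP16 had 69.1, 65.5 and 64.2 CPM in the PD-L1 high fraction, against 29.9, 30.2 and 34.5 CPM in the PD-L1 low fraction (log2 fold change 1.08 ± 0.07 SE, adjusted p = 1.13e-11). It had 217 and 243 CPM in the HLA high fraction, against 87.8 and 90.6 CPM in the HLA low fraction. It had 41.8, 46.1 and 45.3 CPM in unsorted H69M, against 44.3, 43.5 and 39.3 CPM in H69, which did not pass the test (adjusted p = 0.441). Mmp16 had 13.6, 12.8 and 19.4 CPM in RPP-A, against 0.734, 3.19 and 2.25 CPM in RPP (log2 fold change 2.86 ± 0.41 SE, adjusted p = 0.000325). MMP17, which is anchored by a lipid and not by a transmembrane segment, rose in the PD-L1 high fraction (log2 fold change 1.04 ± 0.10 SE, adjusted p = 8.65e-09) and fell in RPP-A (log2 fold change -1.76 ± 0.23 SE, adjusted p = 0.000209). Its fall in the HLA high fraction (adjusted p = 0.0182) was lost without HLA low replicate 1 or without HLA high replicate 2, at adjusted p-values of 0.293 and 0.149. MMP24 also overlaps an annotated antisense gene, so its reads could be shared.

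**Figure D3:**
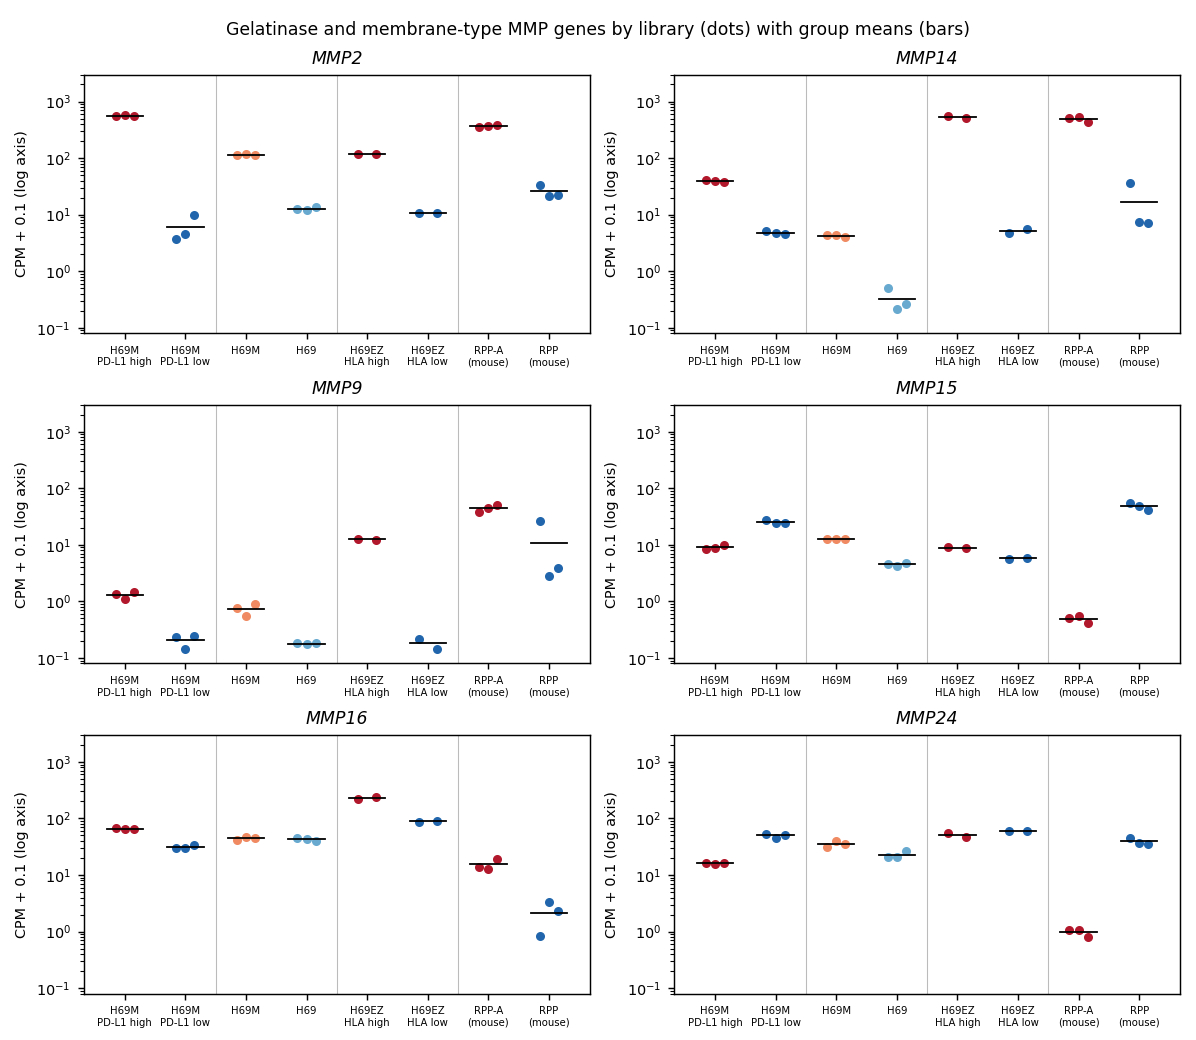
CPM plus 0.1 on a log axis of MMP2, MMP14, MMP9, MMP15, MMP16 and MMP24 in each library (dots) with group means (bars) over the 8 groups. MMP2, MMP14 and MMP9 lie higher in PD-L1 high, HLA high and RPP-A than in their pairs, whereas MMP15 and MMP24 lie lower in PD-L1 high and RPP-A; 1 RPP library lies above the other 2 for MMP14 and MMP9.

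A cluster of 9 MMP genes on chromosome 11 holds 5 human members, in the order MMP7, MMP10, MMP1, MMP3 and MMP13 along the chromosome, with 4 genes that are no members. MMP10 fell in all 3 human comparisons while the other 4 rose. MMP7 and MMP10 were also 2 of the 3 human members whose promoter entry held the letters TGANTCA, where N is any base. AP-1 (FOS and JUN family) proteins recognise the forms with C or G in the middle. Of the 3 members, only MMP7 held such a form (TGAGTCA), and MMP10 and ADAMTS12 held TGAATCA. Entries were found for 28 of 50 human members, 10.7% of which held these letters, against 7.71% of 35116 promoters. The first share counts genes and the second counts promoter entries, so they are not in the same unit. Both cover any middle base. MMP1, MMP3 and MMP13 of the cluster had no entry and were not searched. The letters were searched from 250 bases before to 50 after the start, and read the same on both strands. The 120 bases before each start are shown because 2 genes of the cluster with the letters at the same distance differed in direction. Their letters also differ in the middle base, G in MMP7 and A in MMP10. The sequences are from RefSeq (GRCh38.p14), minus strand, 5′ to 3′, with the matched letters in capitals, at chr11:102530748-102530867 for MMP7, chr11:102780629-102780748 for MMP10 and chr5:33891991-33892110 for ADAMTS12. The first base of the match lay 67 bases before the start in MMP7 and MMP10 and 84 in ADAMTS12. These are other coordinates than those of the build that the submitters name (hg19).
MMP7: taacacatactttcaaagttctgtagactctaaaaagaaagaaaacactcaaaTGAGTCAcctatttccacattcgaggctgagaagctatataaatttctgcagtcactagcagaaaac
MMP10: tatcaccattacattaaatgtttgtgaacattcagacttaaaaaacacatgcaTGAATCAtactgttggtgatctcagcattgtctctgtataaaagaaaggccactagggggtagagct
ADAMTS12: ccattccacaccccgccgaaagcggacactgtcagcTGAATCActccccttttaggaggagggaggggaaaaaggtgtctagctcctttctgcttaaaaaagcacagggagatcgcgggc

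MMP10 (stromelysin-2), which cuts proteoglycans and activates other MMPs, had 1.86, 1.82 and 1.83 CPM in the PD-L1 high fraction, against 8.15, 9.35 and 7.38 CPM in the PD-L1 low fraction (log2 fold change -2.19 ± 0.16 SE, adjusted p = 9.79e-11). It had 5.62, 5.87 and 5.05 CPM in unsorted H69M, against 14.6, 17.1 and 18.9 CPM in H69 (log2 fold change -1.60 ± 0.11 SE, adjusted p = 8.65e-11). It had 3.58 and 3.52 CPM in the HLA high fraction, against 8.64 and 8.59 CPM in the HLA low fraction (log2 fold change -1.28 ± 0.12 SE, adjusted p = 2.04e-25). The order was H69, PD-L1 low, unsorted H69M and PD-L1 high from high to low, with no overlap between neighbours. In mouse, Mmp10 had 2.10, 1.89 and 4.12 CPM in RPP-A, against 4.89, 0.208 and 0.422 CPM in RPP and did not pass the test (adjusted p = 0.563). Without EHK_RPP4, it rose, with a log2 fold change of 3.12 and an adjusted p of 0.00180.

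MMP7 (matrilysin), a small MMP usually made by epithelia, was at 0 in all H69, PD-L1 low and HLA low libraries. It had 1.71, 1.12 and 0.844 CPM in the PD-L1 high fraction, at least 24.6-fold higher than the PD-L1 low fraction against 3 counts over that group. Unsorted H69M had 0.135, 0.398 and 0.268 CPM, at least 5.58-fold higher than H69. The HLA high fraction had 2.02 and 1.93 CPM, at least 61.9-fold higher than the HLA low fraction. These 3 rises passed the test, at adjusted p-values of 6.63e-07, 0.00103 and 4.24e-44.

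MMP13 (collagenase-3), which cuts fibrillar collagen, had 20.5 and 23.0 CPM in the HLA high fraction, against 0 and 0.0232 CPM in the HLA low fraction, a count ratio of 2023 (95% exact interval 363 to 79957). It had 6.56, 5.82 and 4.71 CPM in the PD-L1 high fraction, against 0, 0.0465 and 0 CPM in the PD-L1 low fraction, a ratio of 336 (95% exact interval 59.9 to 13324). It was at 0 in H69 and had 0.494, 0.647 and 0.918 CPM in unsorted H69M, at least 14.9-fold higher. MMP3 (stromelysin-1) had 6.999, 7.64 and 7.81 CPM in the PD-L1 high fraction, against 0.177, 0 and 0.145 CPM in the PD-L1 low fraction (log2 fold change 6.09 ± 0.30 SE, adjusted p = 2.1e-13). Without PD-L1 low replicate 2 that fold was 5.45, and without replicate 1 it was a count ratio of 131 (95% exact interval 36.1 to 1089). It had 3.40 and 3.41 CPM in the HLA high fraction, against 0.0593 and 0 CPM in the HLA low fraction, a ratio of 106 (95% exact interval 36.1 to 519). Mmp3 had 13.3, 12.1 and 28.7 CPM in RPP-A, against 0.245, 0.0693 and 0 CPM in RPP (log2 fold change 7.41 ± 0.69 SE, adjusted p = 2.92e-05). Without EHK_RPP4, 1 count was left in RPP, a ratio of 516 (95% exact interval 92.3 to 20388). Mmp13 also rose in RPP-A (log2 fold change 3.20 ± 0.61 SE, adjusted p = 0.00163, and 4.70 without EHK_RPP4). MMP1, the interstitial collagenase, had 6.93 and 7.43 CPM in the HLA high fraction, against 0.0988 and 0.116 CPM in the HLA low fraction (log2 fold change 6.03 ± 0.25 SE). It had 1.03, 0.962 and 1.20 CPM in the PD-L1 high fraction, against 0.0886, 0.140 and 0.289 CPM in the PD-L1 low fraction (log2 fold change 2.71 ± 0.38 SE, adjusted p = 2.06e-06). It had 0.405, 0.299 and 0.268 CPM in unsorted H69M, against 0.0402, 0.0378 and 0.0807 CPM in H69, a ratio of 6.82 (95% exact interval 2.05 to 35.6). No mouse gene carries the symbol MMP1 under the rule.

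**Figure D4:**
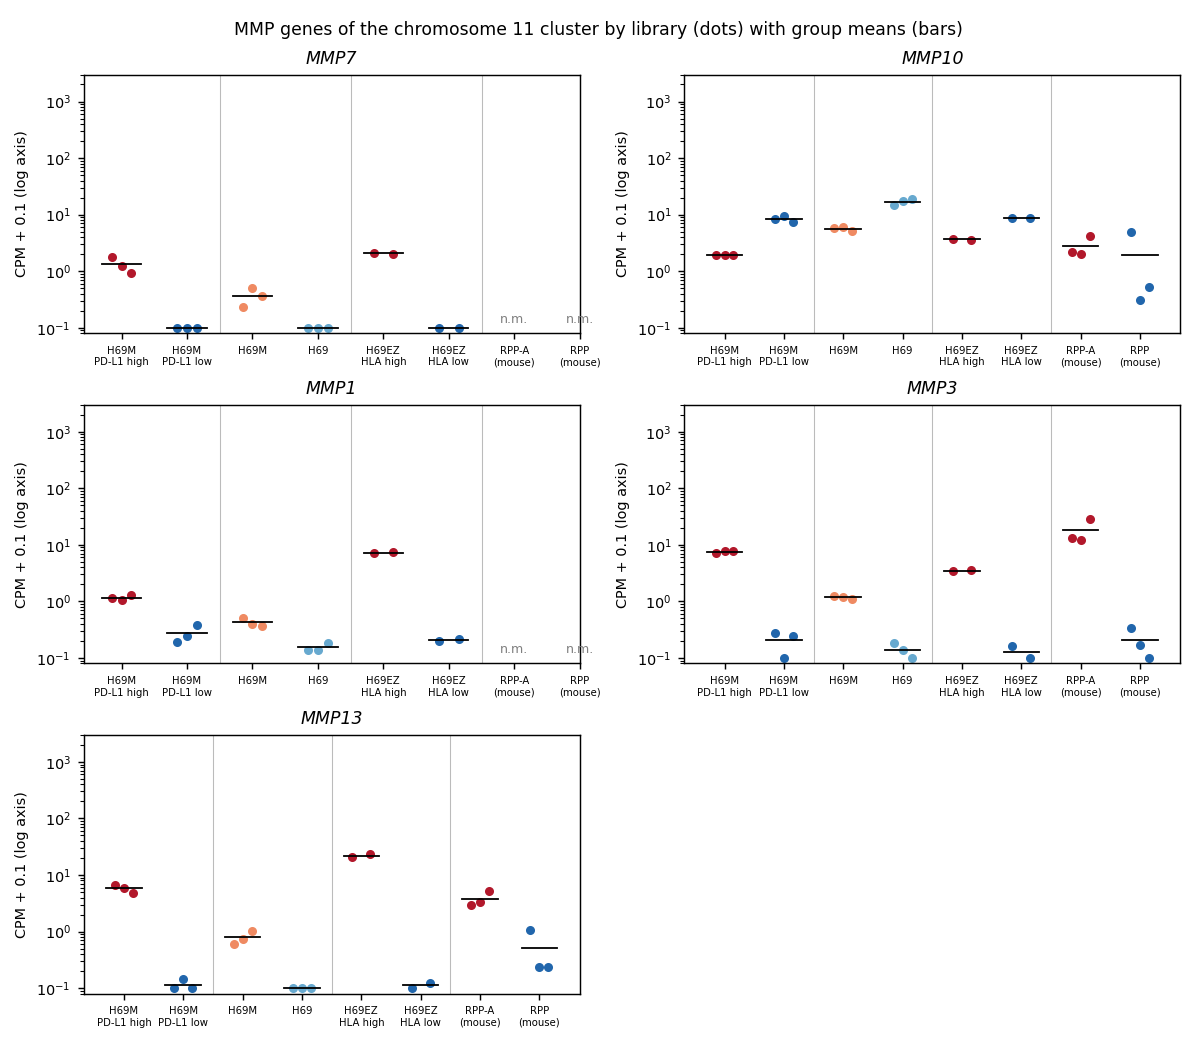
CPM plus 0.1 on a log axis of the 5 members of the chromosome 11 cluster in each library (dots) with group means (bars), with n.m. where the gene is not a member of the mouse table. MMP10 lies lower in PD-L1 high, unsorted H69M and HLA high than in their pairs, and MMP7, MMP1, MMP3 and MMP13 lie higher.

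Outside the cluster, MMP28 (epilysin) rose in all 4 comparisons and MMP11 went both ways. MMP28 had 7.93, 7.91 and 7.17 CPM in the PD-L1 high fraction, against 0.399, 0.279 and 0.579 CPM in the PD-L1 low fraction (log2 fold change 4.25 ± 0.21 SE, adjusted p = 1.53e-12) and was at 0 in H69, against which unsorted H69M was at least 11.2-fold higher. It lies within TAF15 on the opposite strand. Between the PD-L1 sort and the derivation, the log2 fold change itself differed for 27 of 45 tested members (60.0%, beside 71.4% of all tested genes). MMP11, MMP15, MMP24, ADAMTS2, ADAMTS3 and ADAM32 were the 6 members called in opposite directions in both, which fixes that their changes differ. MMP11 (stromelysin-3), a secreted MMP that is activated inside the cell, had 8.61, 7.53 and 6.47 CPM in the PD-L1 high fraction, against 34.7, 32.9 and 34.0 CPM in the PD-L1 low fraction (log2 fold change -2.15 ± 0.09 SE, adjusted p = 9.75e-15). It had 17.7, 17.9 and 18.9 CPM in unsorted H69M, against 5.96, 6.08 and 5.33 CPM in H69 (log2 fold change 1.63 ± 0.09 SE, adjusted p = 4.44e-12). In the HLA sort it did not pass the test (adjusted p = 0.513), and Mmp11 rose in RPP-A (log2 fold change 3.19 ± 0.26 SE, adjusted p = 1.56e-05). Mmp19 (log2 fold change 6.42 ± 0.34 SE, adjusted p = 1.47e-06, and 7.25 without EHK_RPP4) and Mmp23 (log2 fold change 5.45 ± 0.16 SE, adjusted p = 1.58e-07) rose in RPP-A as well.

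In the human comparisons, the sheddase genes ADAM10 and ADAM17 rose by small folds and ADAM9 and ADAM12 by larger ones. ADAM17, which releases TNF and ligands of the EGF receptor, had 69.8, 65.0 and 69.1 CPM in the PD-L1 high fraction, against 46.2, 49.8 and 48.6 CPM in the PD-L1 low fraction (log2 fold change 0.50 ± 0.06 SE, adjusted p = 1.71e-07). It had 51.3, 48.6 and 47.1 CPM in unsorted H69M, against 32.0, 34.3 and 34.6 CPM in H69 (log2 fold change 0.54 ± 0.06 SE, adjusted p = 9.79e-08). It also rose in the HLA high fraction (log2 fold change 0.73 ± 0.07 SE, adjusted p = 1.33e-22) and in RPP-A (log2 fold change 0.62 ± 0.08 SE, adjusted p = 0.000193). In GENCODE v29, ADAM17 shares 1257 exon bases with IAH1 on the opposite strand. ADAM10, which cuts Notch receptors, cadherins and APP, had 331, 306 and 316 CPM in the PD-L1 high fraction, against 168, 198 and 175 CPM in the PD-L1 low fraction (log2 fold change 0.82 ± 0.06 SE, adjusted p = 1.99e-10). It had 242 and 276 CPM in the HLA high fraction, against 126 and 125 CPM in the HLA low fraction (log2 fold change 1.05 ± 0.06 SE). In mouse the direction was opposite, with 179, 176 and 183 CPM in RPP-A, against 241, 274 and 255 CPM in RPP (log2 fold change -0.52 ± 0.09 SE, adjusted p = 0.00121). Its rise in H69M over H69 was small (log2 fold change 0.29 ± 0.06 SE, adjusted p = 0.000348).

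ADAM9, a widely expressed membrane protease, had the highest counts of the ADAM genes in every MHC class I high population. It had 799, 703 and 755 CPM in the PD-L1 high fraction, against 94.8, 107 and 99.7 CPM in the PD-L1 low fraction (log2 fold change 2.90 ± 0.07 SE, adjusted p = 8.24e-19). It had 532 and 589 CPM in the HLA high fraction, against 98.4 and 97.0 CPM in the HLA low fraction and, in mouse, 464, 467 and 513 CPM in RPP-A, against 111, 107 and 100.3 CPM in RPP (log2 fold change 2.18 ± 0.10 SE, adjusted p = 8.3e-07). Between the lines it had 243, 216 and 227 CPM in unsorted H69M, against 87.6, 98.8 and 94.0 CPM in H69 (log2 fold change 1.29 ± 0.06 SE, adjusted p = 4.12e-13). The PD-L1 low fraction was not called apart from H69 (log2 fold change 0.10 ± 0.07 SE, adjusted p = 0.153), though it was without PD-L1 low replicate 1, with a log2 fold change of 0.17 and an adjusted p of 0.0446. ADAM15 rose in all 4 comparisons, by 0.25 to 2.45 on the log2 scale.

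ADAM12, which is known from muscle and mesenchymal cells, had 50.6, 54.9 and 50.4 CPM in the PD-L1 high fraction, against 0, 0 and 0.579 CPM in the PD-L1 low fraction (log2 fold change 8.49 ± 0.26 SE, adjusted p = 6.16e-17). Without PD-L1 low replicate 3, which alone of the 3 held counts, the PD-L1 high fraction was at least 764-fold higher, against 3 counts. The fitted value was 7.76 without replicate 1 and 7.84 without replicate 2. It had 12.1, 11.9 and 12.2 CPM in unsorted H69M, against 3.62, 4.42 and 4.36 CPM in H69 (log2 fold change 1.55 ± 0.16 SE, adjusted p = 4.42e-08). The PD-L1 low fraction lay below H69 in every library (log2 fold change -4.83 ± 0.42 SE, adjusted p = 2.31e-09), by -4.12 and -4.18 without its replicates 1 and 2 and at least 60.2-fold without replicate 3. It had 12.7 and 13.8 CPM in the HLA high fraction, against 2.75 and 2.599 CPM in the HLA low fraction. Adam12 had 90.7, 94.99 and 61.2 CPM in RPP-A, against 0.326, 0.0693 and 0.352 CPM in RPP (log2 fold change 8.35 ± 0.35 SE, adjusted p = 5.29e-07), the largest fitted rise among mouse members. Of the other ADAM proteases, ADAM28 had 1.17, 1.39 and 1.49 CPM in unsorted H69M, against 4.55, 4.95 and 6.46 CPM in H69 (log2 fold change -1.92 ± 0.23 SE, adjusted p = 2.56e-07). Adam33 had 0.136, 0.230 and 0.312 CPM in RPP-A, against 26.8, 26.6 and 33.7 CPM in RPP (log2 fold change -6.94 ± 0.25 SE, adjusted p = 3.05e-07). ADAM33 was at 0 in the HLA low fraction and at least 14.5-fold higher in the HLA high fraction. ADAM8 fell in the HLA high fraction (adjusted p = 0.035), a call lost without any 1 of the 4 libraries, at adjusted p-values of 0.0633 to 0.218.

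The ADAMs without a zinc site fell in most human comparisons. All 4 of them fell in H69M against H69, and 3 of 4 fell in the PD-L1 high fraction, where ADAM32 rose. For ADAM32, libraries of H69M and H69 overlapped. In the HLA high fraction 2 of 4 fell and 1 rose, and in RPP-A 1 of 3 fell and 1 rose. Of all tested genes, 36.6% fell in H69M, 39.4% in the PD-L1 high fraction, 40.2% in the HLA high fraction and 40.6% in RPP-A. ADAM22, a receptor for the secreted synaptic protein LGI1, had 57.6, 52.6 and 54.3 CPM in the PD-L1 high fraction, against 163, 169.6 and 173 CPM in the PD-L1 low fraction (log2 fold change -1.62 ± 0.05 SE, adjusted p = 3.25e-16). It had 115, 119 and 124 CPM in unsorted H69M, against 174, 174 and 185 CPM in H69 (log2 fold change -0.57 ± 0.05 SE, adjusted p = 4.33e-09). It had 69.7 and 78.6 CPM in the HLA high fraction, against 115 and 112 CPM in the HLA low fraction (log2 fold change -0.61 ± 0.07 SE). Adam22 had 2.44, 1.78 and 1.56 CPM in RPP-A, against 79.5, 113 and 104 CPM in RPP (log2 fold change -5.68 ± 0.21 SE, adjusted p = 3.39e-07), the widest difference of the 4 comparisons.

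ADAM11, a related protein of neurons, had 4.26, 4.27 and 5.70 CPM in the PD-L1 high fraction, against 11.2, 10.6 and 11.9 CPM in the PD-L1 low fraction (log2 fold change -1.26 ± 0.13 SE, adjusted p = 3.86e-08). It had 9.95 and 9.17 CPM in the HLA high fraction, against 43.7 and 46.0 CPM in the HLA low fraction (log2 fold change -2.23 ± 0.09 SE). It had 4.90, 5.27 and 5.78 CPM in unsorted H69M, against 15.2, 12.9 and 11.3 CPM in H69 (log2 fold change -1.32 ± 0.12 SE, adjusted p = 5.72e-09). In mouse it went the other way at low levels, with 2.44, 3.16 and 2.62 CPM in RPP-A, against 0.571, 0.0693 and 0.281 CPM in RPP (log2 fold change 3.18 ± 0.47 SE, adjusted p = 0.00039, and 3.96 without EHK_RPP4). ADAM23, another LGI1 receptor, had 18.0, 21.7 and 21.2 CPM in unsorted H69M, against 34.3, 34.6 and 38.4 CPM in H69 (log2 fold change -0.81 ± 0.08 SE, adjusted p = 2.61e-08). Its fall in the PD-L1 high fraction was small (log2 fold change -0.28 ± 0.09 SE, adjusted p = 0.0079), it rose in the HLA high fraction (log2 fold change 0.48 ± 0.08 SE, adjusted p = 1.02e-08) and it did not pass the test in mouse (adjusted p = 0.941). ADAM32 averaged under 1 CPM in all groups, and its calls were lost without single libraries: its fall in H69M without H69 replicate 1 or H69M replicate 1 or 2, at adjusted p-values of 0.190, 0.179 and 0.126, and its rise in the PD-L1 high fraction without PD-L1 low replicate 1 or PD-L1 high replicate 1, at 0.0614 and 0.0744.

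Of the 4 LGI genes, which encode the ligands of these receptors, 3 fell and LGI1 was not tested in the PD-L1 high fraction, and all 4 fell in the HLA high fraction. Of all tested genes, 39.4% and 40.2% fell there. LGI1 had a mean of 0.594 CPM in the HLA high fraction, against 7.11 CPM in the HLA low fraction (log2 fold change -3.57 ± 0.18 SE, adjusted p = 3.19e-85). In mouse, Lgi1 had a mean of 0.240 CPM in RPP-A, against 26.4 CPM in RPP (log2 fold change -6.68 ± 0.32 SE, adjusted p = 9.42e-07), while Lgi2 rose (log2 fold change 2.05 ± 0.18 SE, adjusted p = 1.89e-05), Lgi3 did not pass the test (adjusted p = 0.797) and Lgi4 was not tested. In H69M against H69, LGI2 rose, LGI3 fell, LGI4 did not pass the test and LGI1 was not tested.

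Among the ADAMTS proteases that cut hyaluronan-binding proteoglycans, 4 of 5 rose in H69M, 5 of 5 in the PD-L1 high fraction, 4 of 5 tested in the HLA high fraction and 5 of 7 in RPP-A. Of all tested genes, 35.9%, 39%, 41.1% and 37.6% rose in these comparisons in turn. ADAMTS1 had 8.47, 10.2 and 10.1 CPM in the PD-L1 high fraction, against 0.266, 0.140 and 0.217 CPM in the PD-L1 low fraction (log2 fold change 5.49 ± 0.25 SE, adjusted p = 5.61e-14). It had 2.25, 2.34 and 1.99 CPM in unsorted H69M, against 0.121, 0.227 and 0 CPM in H69 (log2 fold change 3.89 ± 0.35 SE, adjusted p = 4.19e-09). Without H69 replicate 2, 3 counts were left in H69 and the count ratio of unsorted H69M to H69 was 27.0 (95% exact interval 9.06 to 132). It had 44.4 and 48.4 CPM in the HLA high fraction, against 10.7 and 11.2 CPM in the HLA low fraction. Adamts1 had 179, 175 and 156 CPM in RPP-A, against 5.06, 0.831 and 0.844 CPM in RPP (log2 fold change 6.30 ± 0.54 SE, adjusted p = 1.9e-05, and 7.69 without EHK_RPP4). ADAMTS15 rose in all 4 comparisons, by 2.05 in RPP-A to 4.56 in the PD-L1 high fraction on the log2 scale. ADAMTS9 was at 0 in H69 and had 3.15, 2.74 and 2.87 CPM in unsorted H69M, at least 62.0-fold higher. It had 12.2, 10.8 and 10.4 CPM in the PD-L1 high fraction, against 0.0443, 0 and 0.289 CPM in the PD-L1 low fraction (log2 fold change 6.91 ± 0.31 SE, adjusted p = 3.75e-13). Without PD-L1 low replicate 2 the fold was 6.28, and without replicate 3 it was a count ratio of 495 (95% exact interval 88.4 to 19566). Adamts9 rose in RPP-A (log2 fold change 6.93 ± 0.14 SE, adjusted p = 1.21e-07).

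ADAMTS5 (aggrecanase-2) differed in direction between the human fractions. It was at 0 in H69 and had 1.30, 1.19 and 1.34 CPM in unsorted H69M, at least 27.3-fold higher. It had 3.43, 2.30 and 2.95 CPM in the PD-L1 high fraction, against 1.02, 1.49 and 1.16 CPM in the PD-L1 low fraction (log2 fold change 1.24 ± 0.22 SE, adjusted p = 4.73e-05), but 2.76 and 3.10 CPM in the HLA high fraction, against 6.52 and 6.497 CPM in the HLA low fraction (log2 fold change -1.16 ± 0.13 SE, adjusted p = 6.03e-18). Adamts5 had 195, 198 and 230.2 CPM in RPP-A, against 0.734, 0.831 and 0.703 CPM in RPP (log2 fold change 8.08 ± 0.15 SE, adjusted p = 1.21e-07). ADAMTS4 (aggrecanase-1) rose in the PD-L1 high fraction (log2 fold change 2.41 ± 0.23 SE, adjusted p = 7.82e-09), in the HLA high fraction (log2 fold change 3.42 ± 0.09 SE) and in RPP-A (log2 fold change 2.58 ± 0.32 SE, adjusted p = 0.000154), and did not pass the test in H69M (adjusted p = 0.657).

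The procollagen N-proteinases ADAMTS2, ADAMTS3 and ADAMTS14, which trim fibrillar procollagens, all fell in H69M and all rose in RPP-A. Of all tested genes, 36.6% fell in H69M and 37.6% rose in RPP-A. ADAMTS14 had 7.91, 8.16 and 7.46 CPM in unsorted H69M, against 24.5, 20.4 and 18.6 CPM in H69 (log2 fold change -1.45 ± 0.10 SE, adjusted p = 5.75e-11). Adamts14 had 71.7, 73.1 and 69.2 CPM in RPP-A, against 3.10, 0.277 and 0.492 CPM in RPP (log2 fold change 5.86 ± 0.53 SE, adjusted p = 2.51e-05, and 7.55 without EHK_RPP4). ADAMTS14 also fell in the PD-L1 high fraction (log2 fold change -0.60 ± 0.10 SE, adjusted p = 2.35e-05) and in the HLA high fraction (log2 fold change -0.43 ± 0.14 SE, adjusted p = 0.00267), a call that DESeq2 did not make (adjusted p = 0.0669). Adamts2 averaged 410.1 CPM in RPP-A, against 6.03 CPM in RPP (log2 fold change 6.09 ± 0.24 SE, adjusted p = 4.12e-07). In the human libraries ADAMTS2 stayed under 2 CPM, fell in the HLA high fraction (log2 fold change -1.46 ± 0.33 SE, adjusted p = 1.78e-05) and rose in the PD-L1 high fraction (log2 fold change 1.64 ± 0.44 SE, adjusted p = 0.00217, and 2.31 without PD-L1 low replicate 2).

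Among members with at least 1 CPM in the higher group, ADAMTS12 and ADAMTS10 had 2 of the 4 largest fitted rises in H69M, and ADAMTS18 1 of the 4 largest falls. ADAMTS12, a matrix protease, was at 0 in H69 and had 8.76, 9.30 and 9.41 CPM in unsorted H69M, at least 195-fold higher. It had 19.97, 19.7 and 21.4 CPM in the PD-L1 high fraction, against 0, 0 and 0.0723 CPM in the PD-L1 low fraction, a count ratio of 1173 (95% exact interval 210.0 to 46356) that rests on 1 count in PD-L1 low replicate 3. It had 2.64 and 2.42 CPM in the HLA high fraction, against 0.0988 and 0.0928 CPM in the HLA low fraction. Adamts12 had 35.6, 33.9 and 25.7 CPM in RPP-A, against 0.816, 0 and 0.352 CPM in RPP (log2 fold change 6.40 ± 0.49 SE, adjusted p = 9.78e-06, 7.48 without EHK_RPP4 and 5.80 without RPP1). ADAMTS10, which binds fibrillin microfibrils, had 5.12, 4.13 and 6.08 CPM in unsorted H69M, against 0.0402, 0 and 0 CPM in H69, a ratio of 331 (95% exact interval 59.1 to 13118). It had 33.5, 34.2 and 39.3 CPM in the PD-L1 high fraction, against 0.0886, 0.0465 and 0.289 CPM in the PD-L1 low fraction (log2 fold change 8.13 ± 0.24 SE, adjusted p = 3.26e-17). Without PD-L1 low replicate 3, 3 counts were left there, a ratio of 519 (95% exact interval 177 to 2518). Its rise in RPP-A was small (log2 fold change 0.94 ± 0.15 SE, adjusted p = 0.000686).

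ADAMTS18 had 0.0449, 0.0995 and 0.115 CPM in unsorted H69M, against 3.42, 3.51 and 4.92 CPM in H69 (log2 fold change -5.35 ± 0.32 SE, adjusted p = 7.27e-12). It had 0.0489, 0.107 and 0.0703 CPM in the PD-L1 high fraction, against 1.33, 1.49 and 1.16 CPM in the PD-L1 low fraction (log2 fold change -4.06 ± 0.45 SE, adjusted p = 7.52e-08). It rose at low level in the HLA high fraction, at 0.421 and 0.678 CPM, against 0.0988 and 0.0696 CPM in the HLA low fraction. Adamts18 had 0.339, 0.402 and 0.125 CPM in RPP-A, against 24.96, 21.7 and 22.9 CPM in RPP (log2 fold change -6.28 ± 0.27 SE, adjusted p = 5.47e-07). Adamts17, the largest fitted fall among mouse members, had 0.203, 0.172 and 0 CPM in RPP-A, against 23.0, 31.2 and 27.7 CPM in RPP (log2 fold change -7.68 ± 0.38 SE, adjusted p = 1.11e-06).

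In the PD-L1 low fraction, members differed from H69 in both directions in near equal number. Of 45 tested members, 14 were higher and 13 lower than in H69 (39% and 36.9% of all tested genes), with a median log2 fold change of 0.31 against 0.0199 over all genes. With at least a 2-fold change also required, 6 were lower (8.52% of all tested genes). Of the membrane MMPs, 4 were higher and MMP16 was lower (log2 fold change -0.44 ± 0.07 SE, adjusted p = 1.04e-05). The higher ones were MMP14 (log2 fold change 4.29 ± 0.24 SE, adjusted p = 3.92e-12, and 5.13 without H69 replicate 1), MMP15 (log2 fold change 2.55 ± 0.09 SE, adjusted p = 5.31e-15), MMP17 (log2 fold change 2.35 ± 0.15 SE, adjusted p = 1.63e-11) and MMP24 (log2 fold change 1.18 ± 0.09 SE, adjusted p = 7.18e-10). TIMP1 (log2 fold change -0.80 ± 0.11 SE, adjusted p = 1.85e-06) and MMP2 were lower, as was TIMP4, with a count ratio of 0.0408 (95% exact interval 0.00481 to 0.155). TIMP3 did not pass the test (adjusted p = 0.287) but was lower without PD-L1 low replicate 3, with an adjusted p of 1.26e-05. The PD-L1 high fraction against H69 had 33 members higher and 9 lower (38.1% and 39.5% of all tested genes).

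Against unsorted H69M, from which both fractions were sorted, 12 members were higher and 18 lower in the PD-L1 low fraction (32.6% and 33% of all tested genes), 5 of the higher ones by at least 2-fold (8.48% of all tested genes). In the PD-L1 high fraction, 34 were higher and 5 lower than in unsorted H69M (37.8% and 32.6% of all tested genes). All 4 TIMP genes were lower in the PD-L1 low fraction than in unsorted H69M, with log2 fold changes of -0.33 (TIMP2) to -5.54 (TIMP3). For TIMP3 it was -4.84 and -4.88 without PD-L1 low replicates 1 and 2, and at least 182-fold lower without replicate 3, which held all its counts there. ADAMTS18 (log2 fold change 3.85 ± 0.40 SE, adjusted p = 7.91e-08) and ADAMTS7 (log2 fold change 1.99 ± 0.16 SE, adjusted p = 1.6e-09) were higher there. Both comparisons share the unsorted libraries.

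For 10 members whose higher fraction was PD-L1 high, with at least 10 CPM there and at least a 4-fold difference between fractions, the level in unsorted H69M was placed on a linear scale from the PD-L1 low mean (0%) to the PD-L1 high mean (100%). These limits were chosen after the values were seen, and no test was made. MMP14 lay at -1.74%, below the PD-L1 low mean, and ADAMTS12 at 44.9%. TIMP1 lay at 26.2%, MMP2 at 19.6% and ADAM9 at 19.7%. The median of the 10 was 21.2%, beside 20.8% over 896 genes that met the same limits, with quartiles of 14.6% and 26.0% and 5th to 95th percentiles from 3.68% to 35.5%. MMP14 and ADAMTS12 thus lay outside that last range and the other 8 inside it. MMP11 alone met the same limits with the PD-L1 low fraction as the higher one. It lay at 59.7%, beside a median of 70.3% over 246 such genes, with 5th to 95th percentiles from 20.9% to 100.04%.

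**Figure D5:**
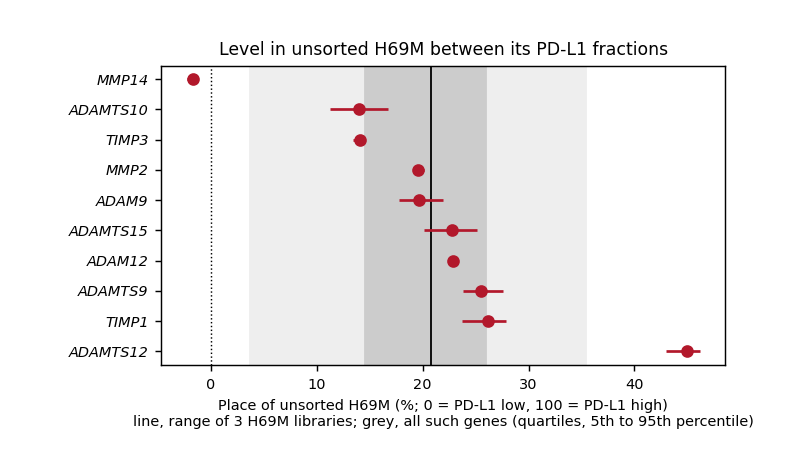
Level of 10 members that were higher in PD-L1 high, in unsorted H69M as a percentage of the way from the PD-L1 low mean to the PD-L1 high mean (dots, from group means; lines, range over the 3 unsorted libraries), with the quartiles and the 5th to 95th percentiles of all 896 such genes in grey. MMP14 lies at -1.74% and ADAMTS12 at 44.9%, outside the grey range, and the other 8 members lie inside it.

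The PD-L1 sort, the HLA sort and the RPP-A comparison share no library. Of 54 symbols that were members in at least 1 table, 35 were tested in all 3. Of these, 19 (54.3%) were higher in the high or adherent population in all 3, beside 16.9% of 11213 genes matched by symbol. They were TIMP1, TIMP2, TIMP3, MMP2, MMP3, MMP9, MMP13, MMP14, MMP16, MMP28, ADAM9, ADAM12, ADAM15, ADAM17, ADAMTS1, ADAMTS4, ADAMTS10, ADAMTS12 and ADAMTS15. The mouse call of MMP9 is the one described above as lost when most single libraries were left out. A gene read almost only in 1 group passes the filter through that group, which leaves only 1 direction open to its call. MMP13, with 1 count in each of the PD-L1 low and HLA low fractions, is such a gene. ADAMTS12, with 1 count in the PD-L1 low fraction, and MMP28, with 1 count in the HLA low fraction, are others. The shares in this paragraph are therefore a description. ADAM22 and MMP24 were lower in all 3 (5.71%, beside 14.6% of matched genes). ADAM10, ADAM11 and ADAMTS14 were alike in both human sorts and opposite in mouse (8.57%, beside 12.6% of matched genes), where the HLA call of ADAMTS14 is the one DESeq2 did not make. ADAMTS2, ADAMTS5, ADAMTS7, ADAMTS18, MMP15 and MMP17 were called in all 3 and opposite between the human sorts (17.1%, beside 10.6% of matched genes), and 5 symbols were not called in at least 1 comparison.

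The surrounding proteolysis genes were counted by lists. Of all tested genes, 35.9% rose and 36.6% fell in H69M against H69. In the PD-L1 sort these shares were 39% and 39.4%, in the HLA sort 41.1% and 40.2%, and in RPP-A 37.6% and 40.6%. Of 7 genes of plasminogen activation, a serine protease system that also activates MMPs, 6 rose in each of the 4 comparisons and PLG, which encodes plasminogen, was not tested. PLAU, the urokinase gene, had a mean of 68.7 CPM in the PD-L1 high fraction, against 5.76 CPM in the PD-L1 low fraction (log2 fold change 3.57 ± 0.07 SE, adjusted p = 1.92e-19), and PLAT, the tissue activator gene, had a mean of 21.1 CPM in unsorted H69M, against 0.707 CPM in H69 (log2 fold change 4.92 ± 0.15 SE, adjusted p = 2.02e-16). S100A10, part of a cell-surface plasminogen receptor, had a mean of 151 CPM in the HLA high fraction, against 1.37 CPM in the HLA low fraction. RECK, a membrane-anchored MMP inhibitor, had a mean of 27.8 CPM in the PD-L1 high fraction, against 1.18 CPM in the PD-L1 low fraction (log2 fold change 4.56 ± 0.18 SE, adjusted p = 4.67e-15), and in mouse it did not pass the test (adjusted p = 0.946). SPINT1 and SPINT2, which inhibit epithelial serine proteases, fell in all 4, and Spint2 had a mean of 1.02 CPM in RPP-A, against 264 CPM in RPP (log2 fold change -8.01 ± 0.23 SE, adjusted p = 1.58e-07).

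Of 12 matrix substrates, 9 rose and 1 fell in H69M and in the PD-L1 high fraction, 10 rose and 0 fell in the HLA high fraction, and 9 rose and 2 fell in RPP-A. The shares of all tested genes are those given above for the proteolysis lists. FN1, which encodes fibronectin, had a mean of 1971 CPM in the PD-L1 high fraction, against 15.8 CPM in the PD-L1 low fraction (log2 fold change 7.05 ± 0.21 SE, adjusted p = 4.05e-17), and VCAN, the versican gene, had a mean of 1002 CPM in RPP-A, against 12.4 CPM in RPP (log2 fold change 6.36 ± 0.86 SE, adjusted p = 0.00024). COL1A1, COL1A2 and COL3A1 of this list are also among the fibroblast markers above. Of 9 genes that help ADAM10 or ADAM17 mature, RHBDF1 and RHBDF2, the iRhom partners of ADAM17, rose in all 4, and RHBDF1 had a mean of 9.24 CPM in the PD-L1 high fraction, against 0.215 CPM in the PD-L1 low fraction (log2 fold change 5.31 ± 0.25 SE, adjusted p = 8.88e-14). The tetraspanin genes of this list went both ways, and Tspan15, whose product partners ADAM10, had a mean of 2.31 CPM in RPP-A, against 72.6 CPM in RPP (log2 fold change -4.98 ± 0.15 SE, adjusted p = 1.79e-07). Of 7 AP-1 genes, FOSL1 and FOSL2 rose in all 4 and FOS fell in all 4. The remaining genes of this list are not described here, and a link to the protease genes was not tested. FOSL1 had a mean of 24.1 CPM in unsorted H69M, against 0.0773 CPM in H69 (log2 fold change 8.15 ± 0.25 SE, adjusted p = 2.28e-16), and a mean of 76.0 CPM in the PD-L1 high fraction, against 0.552 CPM in the PD-L1 low fraction (log2 fold change 7.17 ± 0.17 SE, adjusted p = 1.07e-18).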

How the data were processed

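RNA-seq libraries were made from 250 ng of total RNA with an exome capture kit, per the labels' protocols, so genes are read through capture probes. The authors deposited 3 tables of raw counts per gene. The submitters' processing notes name STAR 2.6.1 and the builds hg19 and mm10. The sources used here give neither the counting program nor the gene annotation nor whether strand was used. Columns were matched to samples by their names, and the mouse columns to groups only. No mouse column is named RPP-A. The columns RPPM1 to RPPM3 were taken as RPP-A, because the description of the mouse table is that of the RPP and RPP-A samples. Every RPP-A result rests on this reading. All 22 libraries were used.

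Each table was fitted alone with edgeR 4.0.16 (R 4.3.3; limma 3.58.1), with filterByExpr at a minimum count of 10, TMM scaling, 1 coefficient per group, the quasi-likelihood F test and Benjamini-Hochberg adjustment over all tested genes, 15445, 14819 and 14032 of them, with a threshold of 0.05. The SE is the size of the log2 fold change over the root of F. The HLA sort has 2 residual degrees of freedom per gene, and its spread was pooled across genes, so its p-values are small. The code was tested on simulated data. Where a group had 0 counts, a lower bound was computed against 3 counts over the group. With 1 to 3 counts, the ratio has an exact binomial 95% interval. Bounds and intervals cover counting error only.

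Named genes were a fixed panel and the 4 largest fitted rises and falls of each main comparison among called members whose groups did not overlap and whose higher group averaged at least 1 CPM; others were named where they illustrate a role. Members, lists and tests were chosen with earlier results of these data known. Same-numbered replicates did not deviate together in every pair at r over 0.1, so libraries were not treated as paired. With 2 or 3 libraries per group, this check cannot exclude pairing. Alternatives were other scalings, DESeq2 1.42.0, limma-voom, other filters, a minimum fold, the replicate block, the 2 groups alone and leaving out libraries. All 50 human symbols were found in RefSeq. 1 further symbol of this pattern is not reported here.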

Additional observations from a re-analysis of the deposited data

Results flagged for a closer look

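The difference between the log2 fold changes of the PD-L1 sort (PD-L1 high minus PD-L1 low) and the derivation (H69M minus H69) passed edgeR's quasi-likelihood test for 27 of 45 tested members (60.0%, beside 71.4% of all tested genes). For 6 of them both changes were called and opposite. That choice of the 6 fixes that they differ, so their differences are given as a description. The difference was -3.78 ± 0.13 (SE) for MMP11, -3.05 ± 0.13 for MMP15 and -2.34 ± 0.14 for MMP24, each higher in H69M and lower in the PD-L1 high fraction. It was 3.40 ± 0.68 for ADAMTS2, 3.33 ± 0.64 for ADAMTS3 and 2.58 ± 0.70 for ADAM32, each lower in H69M and higher in the PD-L1 high fraction at about 1 CPM or less.

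For 13 of 47 symbols tested in at least 2 of the 3 comparisons that share no library, the calls were opposite and no library overlapped between groups. This is 27.7% of them, beside 29.9% of 14210 genes matched by symbol. Each table was fitted alone, and the difference between tables was not tested. Log2 fold changes follow for PD-L1 high minus low, HLA high minus low and RPP-A minus RPP. ADAM10 had 0.82 in the PD-L1 sort, 1.05 between HLA fractions and -0.52 in RPP-A. ADAM11 had -1.26 in the PD-L1 sort, -2.23 between HLA fractions and 3.18 in RPP-A. ADAMTS14 had -0.60 in the PD-L1 sort, -0.43 between HLA fractions and 5.86 in RPP-A. For these 3, the direction in mouse was opposite to that in both human sorts. Without the RPP library EHK_RPP4, the mouse value was 3.96 for ADAM11 and 7.55 for ADAMTS14, and DESeq2 did not call ADAMTS14 in the HLA sort (adjusted p = 0.0669).

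ADAMTS2 had 1.64 in the PD-L1 sort (2.31 without PD-L1 low replicate 2), -1.46 between HLA fractions and 6.09 in RPP-A. ADAMTS5 had 1.24 in the PD-L1 sort, -1.16 between HLA fractions and 8.08 in RPP-A. ADAMTS7 had -0.84 in the PD-L1 sort, 1.90 between HLA fractions and 5.10 in RPP-A, where it had 6.77 without EHK_RPP4. ADAMTS18 had -4.06 in the PD-L1 sort, 2.61 between HLA fractions and -6.28 in RPP-A. MMP15 had -1.55 in the PD-L1 sort, 0.63 between HLA fractions and -6.90 in RPP-A, and MMP17 had 1.04, -0.76 and -1.76 in the same order. The MMP17 call in the HLA sort was lost without HLA low replicate 1 or HLA high replicate 2, at adjusted p-values of 0.293 and 0.149. ADAM23 had -0.28 in the PD-L1 sort and 0.48 in the HLA sort. MMP11 had -2.15 in the PD-L1 sort and 3.19 in RPP-A. ADAM33 had a fitted 7.41 in the HLA sort, with 0 counts in the HLA low fraction, and -6.94 in RPP-A. ADAMTS8 had 2.92 in the HLA sort (2.14 without HLA high replicate 1) and -2.96 in RPP-A, where 3 counts were left without RPPM1, a count ratio of 0.0749 (95% exact interval 0.0149 to 0.232). No group had the 4 libraries that a check for a single distant library needs.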

How the results depend on the processing

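Counts of members called kept within 1.5 times their value under 231 of 238 alternative counts. The exceptions came from 2 choices. With calls of at least 2-fold, 6 members were lower in the PD-L1 low fraction than in H69 (13 without that minimum), 5 were higher in the PD-L1 low fraction than in unsorted H69M (12) and 5 fell in the HLA sort (9). With a minimum count of 100, which left 30 members tested in the H69 table, 5 fell in H69M (11), 20 rose in the PD-L1 sort (31), 8 were lower in PD-L1 low than in H69 (13) and 22 were higher in PD-L1 high than in unsorted H69M (34). The shares of all tested genes at this minimum are not given here, so these counts cannot be set against all genes. The replicate block, which treats same-numbered libraries as paired, gave 28 higher and 10 lower in H69M, 31 and 11 in the PD-L1 sort and 32 and 8 in the HLA sort. In PD-L1 high against unsorted H69M, every library deviated most like its own number, at r of 0.032 to 0.076, under the limit of 0.1. In the HLA sort this held too, at r of 0.038. With 2 libraries per group, however, the deviations mirror each other, so that check is a single sign. Neither result decides whether libraries were paired. No paired analysis was possible in mouse because the numbers in its column names were not matched to samples.

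Leaving out 1 library gave 28 to 29 higher and 10 to 11 lower in H69M, 30 to 32 and 11 to 12 in the PD-L1 sort, 29 to 31 and 6 to 8 in the HLA sort, 30 to 32 and 10 to 11 in RPP-A, 13 to 16 and 11 to 14 for PD-L1 low against H69, 10 to 13 and 17 to 19 for PD-L1 low against H69M, 33 and 9 for PD-L1 high against H69, and 34 and 5 to 6 for PD-L1 high against H69M. Without both EHK_RPP4 and RPPM3, 32 rose and 11 fell in RPP-A.

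For the named genes, 3267 alternative results kept sign and call, 26 lost the call, 25 gained it and 22 turned sign. Signs turned only for genes that were not called, and the cause was not tested. In PD-L1 low minus H69, MMP7 had 0.015 with the block and 0.094 with voom, and ADAM22 0.026 with library totals. In the PD-L1 sort, ADAM28 had 0.023 with DESeq2 size factors and 0.068 with DESeq2, and ran from -0.25 to 0.29 with 1 library left out. In PD-L1 low minus H69M, ADAM17 had 0.033 with totals and 0.014 at a minimum of 100, and with 1 library left out ADAM17 ran from -0.056 to 0.0090 and ADAMTS5 from -0.26 to 0.070. In PD-L1 high minus H69M, ADAMTS18 ran from -0.55 to 0.073 and ADAM28 from -0.041 to 0.50 with 1 library left out. MMP11 had -0.043 in the HLA sort with totals. Adam23 ran from -0.42 to 0.43 with 1 library left out, and had 0.033 without EHK_RPP4 and RPPM3 and 0.11 with RPPM1 and RPPM2 summed. Members at a few counts are limited by depth.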

Other observations

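Other protease genes around the family were counted by the same rule. Of all tested genes, 35.9% rose and 36.6% fell in H69M against H69. In the PD-L1 sort these shares were 39% and 39.4%, in the HLA sort 41.1% and 40.2%, and in RPP-A 37.6% and 40.6%. Of 10 cathepsins, the lysosomal proteases, 4 rose and 3 fell in H69M against H69, 7 rose and 2 fell in the PD-L1 high against the PD-L1 low fraction, 8 rose and 1 fell in the HLA high against the HLA low fraction, and 8 of 9 measured rose in RPP-A against RPP with none lower (Ctss was not tested). CTSB rose in all 4, with a mean of 609 CPM in the PD-L1 high fraction, against 97.3 CPM in the PD-L1 low fraction (log2 fold change 2.65 ± 0.06 SE, adjusted p = 2.65e-19). CTSC fell in H69M (log2 fold change -1.04 ± 0.06 SE, adjusted p = 3.19e-12) and rose in the PD-L1 high fraction (log2 fold change 2.04 ± 0.06 SE, adjusted p = 6.42e-17). BMP1, a metalloprotease of the astacin family that trims the other end of procollagens, rose in all 4, and had a mean of 258 CPM in the PD-L1 high fraction, against 10.4 CPM in the PD-L1 low fraction (log2 fold change 4.63 ± 0.07 SE, adjusted p = 1.22e-20). Of the remaining astacins, MEP1B fell in the 3 human comparisons, and had a mean of 3.83 CPM in unsorted H69M, against 29.5 CPM in H69 (log2 fold change -2.93 ± 0.11 SE, adjusted p = 4.55e-15).

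Of 17 surface proteins known to be shed by ADAMs, 9 rose and 3 fell in H69M, 11 rose and 4 fell in the PD-L1 high fraction, 10 rose and 3 fell in the HLA high fraction, and 7 rose and 4 fell of 13 measured in RPP-A. For the counts in this paragraph, the shares of all tested genes are those given above. HBEGF, a ligand of the EGF receptor, rose in all 4, and had a mean of 30.4 CPM in the PD-L1 high fraction, against 1.63 CPM in the PD-L1 low fraction (log2 fold change 4.23 ± 0.12 SE, adjusted p = 3.9e-17). MICA and MICB, ligands of the natural killer cell receptor NKG2D, went in opposite directions in the PD-L1 and HLA sorts. MICB had a mean of 2.29 CPM in the PD-L1 high fraction, against 13.0 CPM in the PD-L1 low fraction (log2 fold change -2.46 ± 0.15 SE, adjusted p = 6.76e-12) and a mean of 32.7 CPM in the HLA high fraction, against 75.2 CPM in the HLA low fraction. MICA was at 0 in the PD-L1 low and HLA low fractions, and the PD-L1 high fraction was at least 12.3-fold higher and the HLA high fraction at least 150.3-fold higher. The 4 proprotein convertases, which activate membrane MMPs and ADAMs, had no common direction. FURIN rose in H69M (log2 fold change 0.57 ± 0.06 SE, adjusted p = 5.14e-08), in the PD-L1 high fraction (log2 fold change 0.69 ± 0.06 SE, adjusted p = 7.07e-10) and in RPP-A (log2 fold change 0.84 ± 0.12 SE, adjusted p = 0.000276), and did not pass the test in the HLA sort (adjusted p = 0.515). Of 7 genes of the ADAMTS-like group, which lack the protease domain, 3, 2, 3 and 3 rose and 2, 2, 2 and 4 fell in the 4 comparisons in turn. PAPLN had a mean of 81 CPM in the PD-L1 high fraction, against 2.23 CPM in the PD-L1 low fraction (log2 fold change 5.25 ± 0.12 SE, adjusted p = 6.32e-19), and Papln fell in RPP-A (log2 fold change -7.24 ± 0.49 SE, adjusted p = 5.44e-06).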
